A study of Bos taurus with 6 samples.

Results

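The genes described here are 8 regulators of senescence and cell-cycle arrest: CDKN2A, CDKN2B, CDKN1A, CDKN1B, RB1, TERT, LMNA and LMNB1. They were followed through every window of the genome that the deposited tables label with one of these symbols, together with the window just upstream of each gene's start. This gave 88 labelled windows and 8 upstream windows of 902984 windows in all, for 8 of 26107 labelled genes. Each gene lay at a single locus, and none of the 8 upstream windows carried a gene label.

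DNA came from dermal fibroblast cultures of 3 Holstein heifers, each sampled at 5 and again at 16 months of age, with 1 MIRA-Seq library per animal and age (n = 3 per age, 6 libraries). All cultures were at passage 5, were grown in the same serum-containing medium and had received no treatment, so the groups differ by the age of the animal alone among the factors the labels give. The cells are cultured skin fibroblasts after several passages, and age cannot be told apart from the occasion on which each biopsy was taken and each culture grown. In MIRA-Seq, fragmented DNA is enriched by a pulldown with methyl-binding proteins, so reads in a region rise with both its methylation and its number of CpG sites. The libraries held 19.9 to 43.6 M reads counted in windows. They also differed in evenness, with 6.70% to 32.4% of windows at 0 reads. As these are DNA libraries, the fibroblast identity of the cultures cannot be checked by expression. At gene starts the median signal was 0.0193 RPKM over 10 fibroblast markers, against 0.0774 over 5 epithelial, 0.0924 over 5 leukocyte and 0.129 over 4 endothelial markers. The ranges of single markers overlapped. They were 0.000408 to 0.243 RPKM for fibroblast, 0.0451 to 0.439 for epithelial, 0.0592 to 1.33 for leukocyte and 0.0430 to 0.391 for endothelial markers.

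Cells that stop dividing for good do so largely through inhibitors of cyclin-dependent kinases, which keep the retinoblastoma protein active and the genes for DNA replication silent. Telomerase, whose catalytic subunit TERT encodes, maintains chromosome ends and is shut off in most adult body cells, so that telomeres shorten with division. The nuclear lamins form the mesh beneath the nuclear envelope, and loss of lamin B1 is a known mark of senescent fibroblasts. CpG-rich promoters of active or inducible genes are commonly free of methylation, whereas the bodies of genes are commonly methylated.

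Signal was measured as reads per kilobase and per M matched reads (RPKM) in windows of 3 kb. The start of a gene was its first labelled window on its strand plus the window upstream, and its body was every labelled window past the first. Positions are those of the deposited tables on UMD v3.1. Over all labelled genes the median start held 0.0529 RPKM, the median body 0.0817 RPKM and the median window 0.0293 RPKM. Since CpG density was not corrected for, a higher level in one region than in another is a higher MIRA-Seq signal and not a higher share of methylated sites. RPKM also carries differences between whole libraries. Over the windows of the genome tested for age, the scaling factors (TMM) of animal 3 were 0.718 and 0.850, and those of the others 1.03 to 1.22. Windows of high signal thus tended to be low in RPKM in animal 3 over the genome, and not in these genes alone.

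CDKN2A encodes p16, an inhibitor of the cyclin D kinases whose level climbs in senescent cells, and in the same locus the ARF protein that stabilises p53. Its 9 windows lay at chr8:22128787-22155786 on the plus strand. The start held 0.169, 0.180 and 0.0719 RPKM at 5 months and 0.0954, 0.0830 and 0.109 RPKM at 16 months in animals 1, 2 and 3. Animals 1 and 2 were highest at 5 months, animal 3 was lowest there, and the ages overlapped. Most of this start signal came from the upstream window, at 0.175 ± 0.0827 RPKM (SD, n = 6), while the first labelled window held 0.0612 ± 0.0245 RPKM. The highest window of the gene was chr8:22149787-22152786, 21 kb past the first window and the first that the tables mark as coding, with 0.340 ± 0.132 RPKM. Its values were 0.205, 0.438 and 0.234 RPKM at 5 months and 0.382, 0.535 and 0.246 RPKM at 16 months. The remaining body was low: the 2 coding windows averaged 0.240 RPKM and the other 6 averaged 0.0227 RPKM, with coding windows higher in 6 of 6 libraries.

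CDKN2B encodes p15, a second inhibitor of the same family, and lay 9 kb upstream of CDKN2A at chr8:22113787-22119786. Its start was the lowest of the 8, with read counts of 4, 6 and 0 in the 5-month cultures and 5, 7 and 1 in the 16-month cultures, or 0.0146 ± 0.0119 RPKM (SD, n = 6). In the library with 0 reads, a count of 0 allows up to 0.00799 RPKM. The body, a single coding window at chr8:22116787-22119786, held 0.287, 0.167 and 0.218 RPKM at 5 months and 0.509, 0.442 and 0.205 RPKM at 16 months. Animals 1 and 2 had more signal at 16 months and animal 3 did not. The body was higher than the start in 6 of 6 libraries, although the 2 regions are neighbouring windows.

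CDKN1A encodes p21, the p53 target that arrests the cell cycle after DNA damage. It covered 4 windows at chr23:10559493-10571492 on the plus strand. Its start was low, at 0.0292 ± 0.0110 RPKM (SD, n = 6), from 2 to 13 reads per library. Its first coding window, chr23:10562493-10565492, held 0.800, 0.953 and 0.405 RPKM at 5 months and 0.905, 1.26 and 0.438 RPKM at 16 months. Animal 3 was the lowest at both ages. The next coding window held 0.189 ± 0.0725 RPKM, and in 1 library its highest depth was 0.857 of its reads, which marks reads stacked at a single place. The last window, not coding, held 0.121 ± 0.0591 RPKM.

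CDKN1B encodes p27, the related inhibitor of quiescent cells, and covered 2 windows at chr5:97576706-97582705 on the minus strand. Its first window, which the tables mark as coding, held 0.00566 ± 0.00755 RPKM and the upstream window 0.0513 ± 0.0246 RPKM. The body had no more than 2 reads in any library, below the 3 counts taken as the floor, so no fold is given for it. The labelled part of CDKN1B was thus nearly empty in these libraries. The number of CpG sites there was not counted.

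RB1 encodes the retinoblastoma protein that these inhibitors keep active. Its 40 labelled windows ran over chr12:18194422-18317421 on the plus strand, and 1 window inside the gene carried the label of LPAR6. The first window, with the first coding part, held 0.0113 ± 0.00476 RPKM and the upstream window 0.0704 ± 0.0335 RPKM. Only 2 of the 39 body windows reached 0.1 RPKM. The higher was the noncoding window chr12:18206422-18209421, 12 kb past the first, which held 0.349, 0.264 and 0.144 RPKM at 5 months and 0.406, 0.304 and 0.116 RPKM at 16 months. The other, chr12:18311422-18314421 near the end of the gene, held 0.144, 0.296 and 0.0586 RPKM at 5 months and 0.347, 0.341 and 0.0821 RPKM at 16 months. In both windows animal 3 was the lowest at both ages. The 16 coding windows of the body averaged 0.0342 RPKM and the other 23 averaged 0.0365 RPKM, with the coding windows higher in 3 of 6 libraries.

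TERT had by far the most signal of the 8 genes. Its 6 windows, all marked as coding, lay at chr20:71261918-71279917 on the plus strand. The start held 1.18, 0.898 and 0.881 RPKM at 5 months and 1.27, 1.42 and 0.811 RPKM at 16 months, a mean of 1.08 ± 0.247 RPKM (SD, n = 6) at percentile 96.8 of all gene starts. The body held 2.62, 3.50 and 2.14 RPKM at 5 months and 3.58, 4.07 and 1.66 RPKM at 16 months, a mean of 2.93 ± 0.935 RPKM at percentile 99.5 of all bodies. Animal 3 was lowest in the body at both ages. Single body windows averaged 2.27 to 3.49 RPKM, with no window standing far above the rest and no stacking of reads (highest depth at most 0.277 of the reads in any library). The high signal was not limited to the gene, because the 15 kb upstream, which hold CLPTM1L, averaged 1.17 ± 0.363 RPKM and the 15 kb downstream, which hold SLC6A18, averaged 3.05 ± 1.29 RPKM.

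LMNA encodes lamins A and C, and faulty processing of the lamin A precursor causes progeria. Its 7 windows lay at chr3:14695210-14716209 on the minus strand. The start held 0.0427 ± 0.0212 RPKM (SD, n = 6) and the 3 noncoding body windows averaged 0.0237 RPKM. Within the start, the upstream window held 0.0649 RPKM and was among the windows with stacked reads, while the first window held 0.0204 RPKM. The last 2 windows of the gene, both coding, were far higher. The window chr3:14698210-14701209 held 2.26, 2.40 and 1.09 RPKM at 5 months and 2.24, 2.57 and 0.862 RPKM at 16 months. The window chr3:14695210-14698209 held 2.30, 2.39 and 0.926 RPKM at 5 months and 2.20, 2.39 and 0.732 RPKM at 16 months. Within each animal the ages were close, while animal 3 was lowest at both ages. The 15 kb on either side averaged 0.116 and 0.114 RPKM, so the high signal of LMNA ended with the gene.

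LMNB1 encodes lamin B1 and ran over 18 windows at chr7:28413646-28467645 on the minus strand. It showed no such peak. The start held 0.0154, 0.0579 and 0.0532 RPKM at 5 months and 0.0587, 0.0277 and 0.0684 RPKM at 16 months, and the body 0.0278, 0.0731 and 0.0664 RPKM at 5 months and 0.0581, 0.0342 and 0.0765 RPKM at 16 months. The highest window, chr7:28461646-28464645, held 0.122 ± 0.0416 RPKM. Both regions were lowest in the same libraries, animal 1 at 5 months and animal 2 at 16 months. These were also the libraries with the most windows at 0 reads, 32.4% and 25.5%, and with median windows of 0.0103 and 0.0184 RPKM. The part of this evenness in the low genes was not tested.

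**Figure D1:**
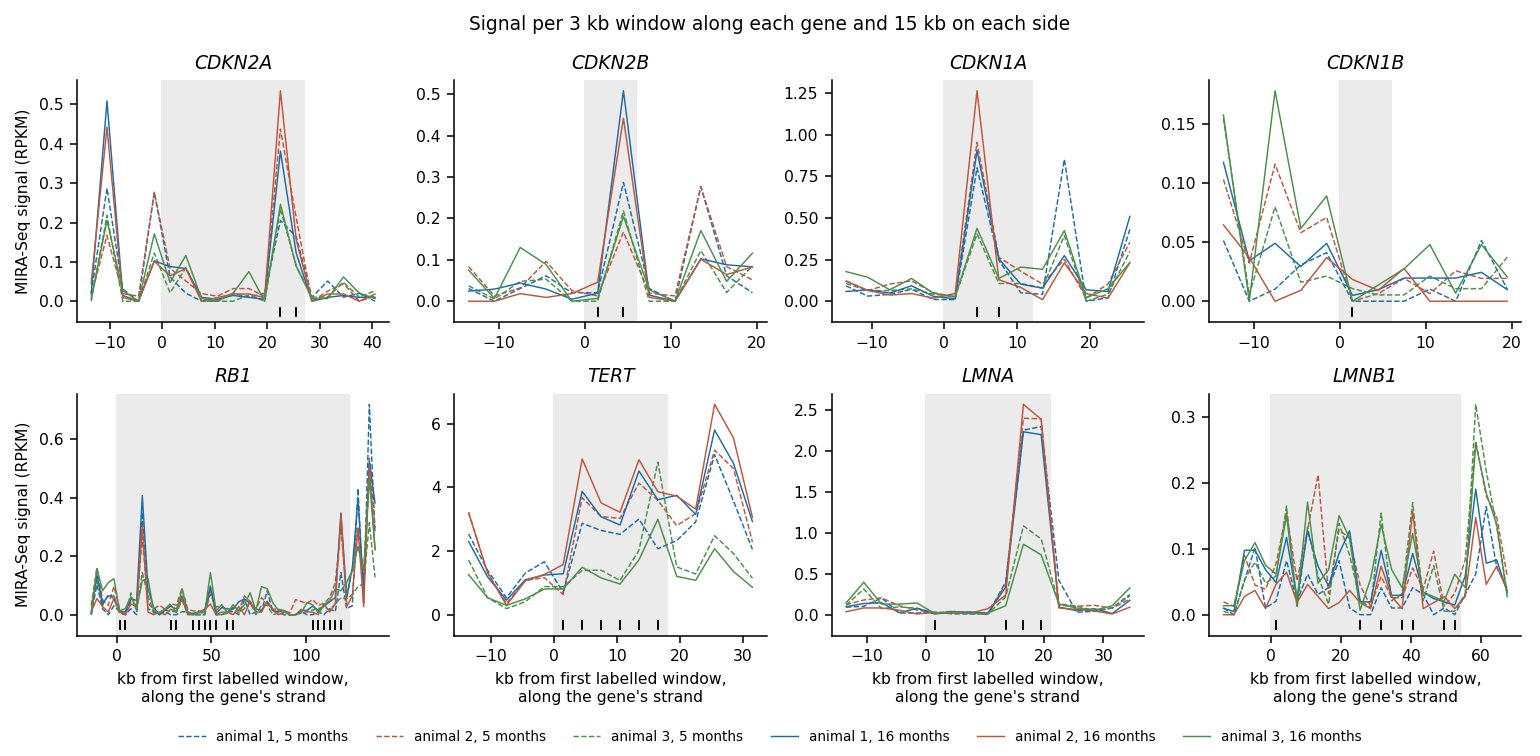
MIRA-Seq signal (RPKM, linear axis, a different scale for each gene) per 3 kb window along each of the 8 genes and 15 kb on each side, against the distance in kb from the first labelled window along the gene's strand. Lines are single libraries (dashed 5 months, solid 16 months, colour by animal), grey marks the labelled windows and ticks mark coding windows. CDKN2A, CDKN2B, CDKN1A and LMNA rise to a peak within the gene (0.340, 0.305, 0.794 and 1.90 RPKM on average). RB1 has lower peaks (highest 0.264 RPKM), whereas TERT lies within a broad stretch of high signal.

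In order of level, the starts ran from TERT (1.08 RPKM) through CDKN2A (0.118 RPKM) to LMNB1, LMNA, RB1, CDKN1A, CDKN1B and CDKN2B (0.0469 to 0.0146 RPKM). From LMNB1 to CDKN1B, neighbours in this order lay closer than the larger of their SDs, while CDKN1B and CDKN2B lay further apart than either SD. CDKN2A stood at percentile 70.3 of all starts, and the 6 lower genes at percentiles 46.1 to 14.6. TERT was the 1 start of the 8 above 0.5 RPKM, a level that 9.01% of all starts passed. In the first window alone, 5 of the 8 genes (CDKN2B, CDKN1A, CDKN1B, RB1 and LMNA) lay below the median window of the genome, and CDKN2A, TERT and LMNB1 lay above it. The bodies ran from TERT (2.93 RPKM) through LMNA (0.680 ± 0.266 RPKM), CDKN1A (0.368 ± 0.115 RPKM), CDKN2B (0.305 ± 0.139 RPKM) and CDKN2A (0.0769 ± 0.0220 RPKM) to LMNB1 (0.0560 ± 0.0205 RPKM), RB1 (0.0355 ± 0.0112 RPKM) and CDKN1B. CDKN1A and CDKN2B differed by less than the larger of their SDs, and so did CDKN2A and LMNB1 and, only just, LMNB1 and RB1. Bodies above 0.5 RPKM were those of TERT and LMNA, against 18.3% of all bodies.

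**Figure D2:**
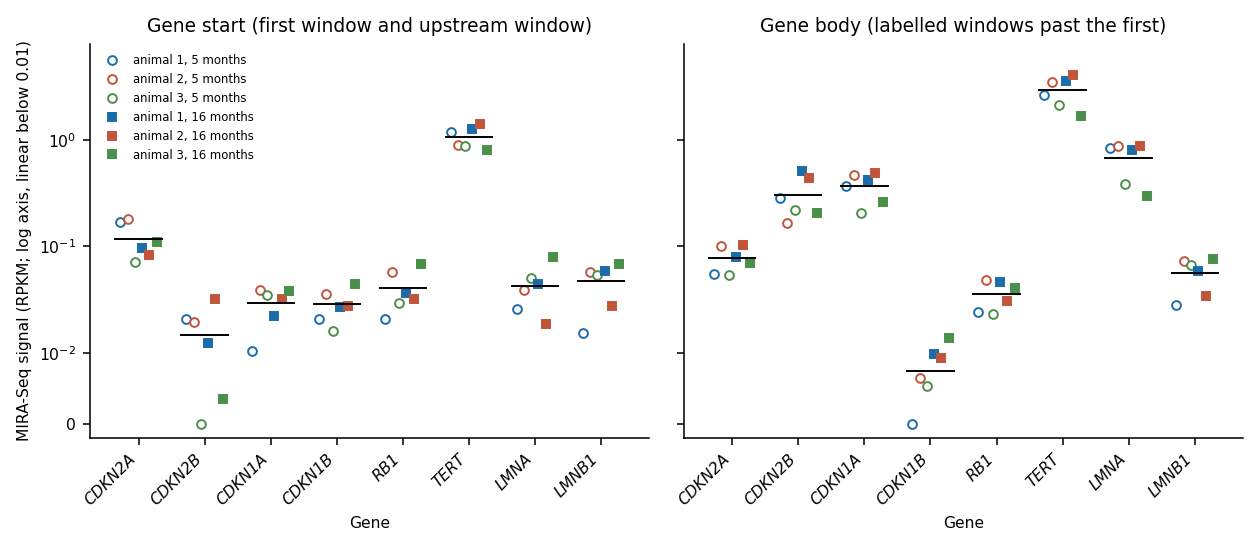
MIRA-Seq signal (RPKM, log axis that is linear below 0.01) in the start (left) and body (right) of each gene. Points are single libraries, open circles 5 months and filled squares 16 months, coloured by animal, and bars are means over 6 libraries. TERT is the highest in both regions, and LMNA, CDKN1A and CDKN2B are low at the start and high in the body.

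The start was then set against the body of each gene within a library, as the log2 ratio of their RPKM with 0.01 added to each. The start was lower than the body in 6 of 6 libraries in 4 of the 8 genes, which is close to the 45.1% of all genes with a body that did so. The mean log2 difference was -3.73 ± 0.77 in CDKN2B, -3.69 ± 1.21 in LMNA, -3.27 ± 0.75 in CDKN1A and -1.40 ± 0.33 in TERT (SD, n = 6). Each of these had an exact two-sided sign-flip permutation p of 0.0312, the smallest 6 libraries allow, and 0.05 after adjustment over the 8 genes. With 0.1 RPKM added in place of 0.01, the differences were -1.76 in CDKN2B, -2.37 in LMNA, -1.82 in CDKN1A and -1.33 in TERT. The number of libraries with a lower start does not depend on the value added. The 6 libraries come from 3 animals and are not fully independent, so these p-values are too small as a measure over animals. Over the means of the 3 animals each of the 4 genes had an exact permutation p of 0.25, the smallest possible. In LMNB1 the difference was -0.25 ± 0.19, with the start lower in 5 of 6 libraries (exact permutation p = 0.0625). It fell to -0.088 with the first window alone as the start, and to -0.00013 without windows of stacked reads.

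The remaining genes did not have a lower start. In RB1 the difference was 0.12 ± 0.32 (exact permutation p = 0.438). In CDKN2A it was 0.53 ± 0.58, with the start lower in 1 of 6 libraries (exact permutation p = 0.0938). In CDKN1B the start was higher in 6 of 6 libraries, and no size is given against a body of at most 2 reads. In CDKN2A, CDKN1B and RB1 the direction rested on the upstream window. With the first window alone as the start, the difference was -0.34 in CDKN2A and -1.09 in RB1, and its sign also turned in CDKN1B. Without windows of stacked reads the difference of RB1 was -0.77. Against the median window of the body in place of its mean, the difference was 0.27 in LMNB1, 0.80 in RB1, 1.99 in CDKN2A and -1.71 in LMNA, where the exact permutation p was then 0.0625. The change of this difference with age had an exact permutation p of 0.25 or more in each of the 8 genes, and 3 animals allow none below 0.25. Over all genes the median log2 difference was -0.49, and over the 8 genes it was -0.82.

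Within the body, 5 of the 8 genes had both coding and other windows. Coding windows were higher in 6 of 6 libraries in 3 of them, CDKN2A, CDKN1A (0.492 against 0.121 RPKM) and LMNA (1.34 against 0.0237 RPKM), while over all such genes 52.7% did so. In LMNB1 the coding windows averaged 0.0471 RPKM and the others 0.0609 RPKM, with coding windows higher in 1 of 6 libraries.

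The main comparison of the study asked whether methylation differed with the age of the animal. No window of the 8 genes passed the test of age. Of their 96 windows, 16 had at least 1 read per M counted (CPM) in at least 3 libraries and could be tested, and these are the windows of high signal, 7 of them in TERT. With edgeR's quasi-likelihood test, the animal as a block and calls at a false discovery rate (FDR) below 0.1 and a fold of at least 2, 0 of 16 were called, and 2 had an unadjusted p below 0.05. In the whole genome 0.185% of windows tested were called, and 7.10% had an unadjusted p below 0.05. Of the summed regions, 7 starts and 7 bodies had enough reads, and CDKN2B's start and CDKN1B's body did not. None of these starts or bodies was called, with 0 starts and 0 bodies at an unadjusted p below 0.05. Over all genes 0.0323% of starts and 0.0163% of bodies were called, and 3.36% and 0.522% had an unadjusted p below 0.05. DESeq2 also called 0 windows, starts and bodies of these genes, with 1 window at an unadjusted p below 0.05.

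The windows with the lowest p were the first window of TERT and the body window of CDKN2B. In the first window of TERT the TMM-scaled values were 3.13, 3.25 and 7.15 CPM at 5 months and 6.28, 8.47 and 6.04 CPM at 16 months. Animals 1 and 2 were higher at 16 months by 0.90 and 1.26 on the log2 scale, and animal 3 was higher at 5 months by 0.22. The fitted log2 fold change (5 minus 16 months) was -0.71 (SE 0.22, 95% interval -1.13 to -0.28), with an FDR of 0.191 by edgeR. In the CDKN2B window the values were 1.29, 0.861 and 1.78 CPM at 5 months and 2.48, 2.38 and 1.52 CPM at 16 months. Its log2 fold change was -0.73 (SE 0.35, 95% interval -1.42 to -0.05), with an edgeR FDR of 0.641, and again animal 3 went the other way. The fit pooled the spread over all windows tested, so the intervals and FDRs of these 2 windows do not reflect the spread of each window alone.

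These 2 windows depended on single animals. Without animal 2 the log2 fold changes were -0.36 for TERT and -0.39 for CDKN2B. Without animal 3 both were called by edgeR, at log2 fold changes of -1.19 each and FDRs of 0.000121 for TERT and 0.0656 for CDKN2B, when 1267 windows of the genome were called in place of 194. These FDRs, too, rest on a spread pooled over windows. Under the other alternatives the FDR lay between 0.166 and 1 for TERT and between 0.603 and 1 for CDKN2B. Whether animals differ in their change with age could not be tested, with 1 library per animal and age. Of the 16 windows 1 had ages that did not overlap, LMNA's window chr3:14701210-14704209, against 5.28% of all windows tested. It held 1.79, 1.95 and 1.78 CPM at 5 months and 1.65, 1.29 and 0.813 CPM at 16 months, with a log2 fold change of 0.58 (SE 0.37) and an edgeR FDR of 0.846. In RPKM, without TMM factors, the ages of this window overlapped, since animal 3 at 5 months (0.218) lay below animals 1 and 2 at 16 months (0.338 and 0.240).

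The summed starts and bodies gave wide intervals. For starts, edgeR's fitted log2 fold changes ran from -0.48 (CDKN1B) to 0.48 (CDKN2A), and the 95% interval was -0.22 to 1.19 for CDKN2A, -1.11 to 0.76 for TERT and -1.73 to 1.38 for CDKN1A. For bodies they ran from -0.66 (CDKN2B) to 0.17 (LMNA). The body of CDKN2B is the single window described above, whose interval in the fit over windows did not include 0, and leaving out an animal moved its summed value between -1.23 and -0.081. The intervals were -0.66 to 0.54 for TERT, -0.39 to 0.74 for LMNA, -0.84 to 0.52 for CDKN1A, -0.98 to 0.32 for RB1, -0.72 to 0.73 for LMNB1, -1.06 to 0.53 for CDKN2A and -1.67 to 0.35 for CDKN2B. A change of 2-fold lay outside the interval for the bodies of TERT, LMNA, CDKN1A, RB1 and LMNB1. It lay within the interval for the bodies of CDKN2A and CDKN2B and for each of the 7 starts, so a difference of that size is not excluded there. The fits pooled the spread over all starts or all bodies, so the intervals do not reflect the spread of each gene. Single animals ranged from -0.63 to 0.75 in the TERT body and from -0.86 to 0.66 in the LMNB1 body. A change of 2-fold is therefore not firmly excluded in the other bodies either.

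**Figure D3:**
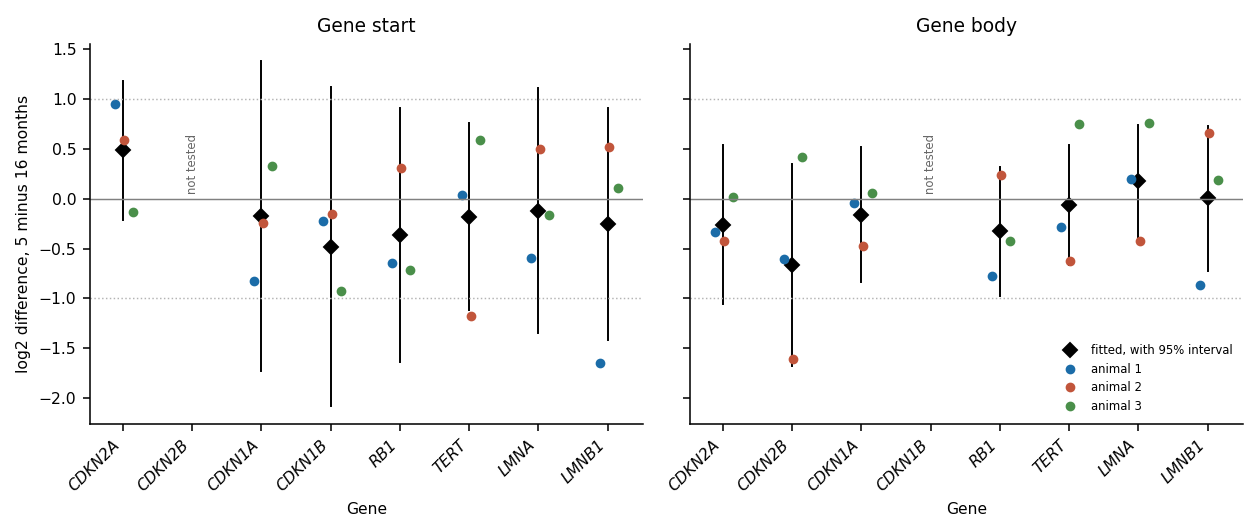
Log2 difference between 5 and 16 months in the start (left) and body (right) of each gene, positive where 5-month cultures were higher. Coloured points are single animals on log2(CPM + 0.5), diamonds are edgeR's fitted log2 fold changes with 95% intervals, and dotted lines mark a fold of 2. The interval of each of the 7 starts and 7 bodies tested includes 0.

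More windows were called between animals than between ages, a comparison chosen after the values were seen. The rules are unlike, because the test of animals is joint over 3 animals and takes the largest fold among them. A difference between animals also cannot be told apart from one between their cultures, pulldowns or libraries. By edgeR's test of the animal term, 8 of the 16 windows had an FDR below 0.1, against 31.6% of all windows, and 3 (18.8%) also had a fold of at least 2 between animals, against 20.6% of all windows. In 7 of the 8 windows (in CDKN1A, RB1, TERT and LMNA) animal 3 was the lowest. The exception was the last window of TERT, chr20:71276918-71279917, at 9.29, 18.5 and 39.0 CPM at 5 months and 17.6, 20.8 and 22.2 CPM at 16 months. Here animal 3 was highest, by 1.20 over animal 1 on the log2 scale (edgeR FDR 0.00860). In RPKM, without TMM factors, this window read 2.07, 3.59 and 4.79 at 5 months but 3.61, 3.86 and 3.00 at 16 months, so animal 3 was then highest at 5 months alone.

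These calls moved with the scaling. With library size in place of TMM factors 8 of the 16 windows were called between animals, against 30.0% of all windows, and in all 8 animal 3 was the lowest. Of the 3 windows called with TMM factors 2 were among them, and the last window of TERT was not, with animal 3 above animal 1 by 0.59 on the log2 scale (edgeR FDR 0.0410). The TMM factors of animal 3 were 0.718 and 0.850, and those of the other libraries 1.03 to 1.22. Summed bodies gave 0 calls of 7 by edgeR, against 0.675% of all bodies. The lowest FDR was 0.118, for LMNA, whose body held 0.831, 0.873 and 0.383 RPKM at 5 months and 0.810, 0.885 and 0.295 RPKM at 16 months.

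**Figure D4:**
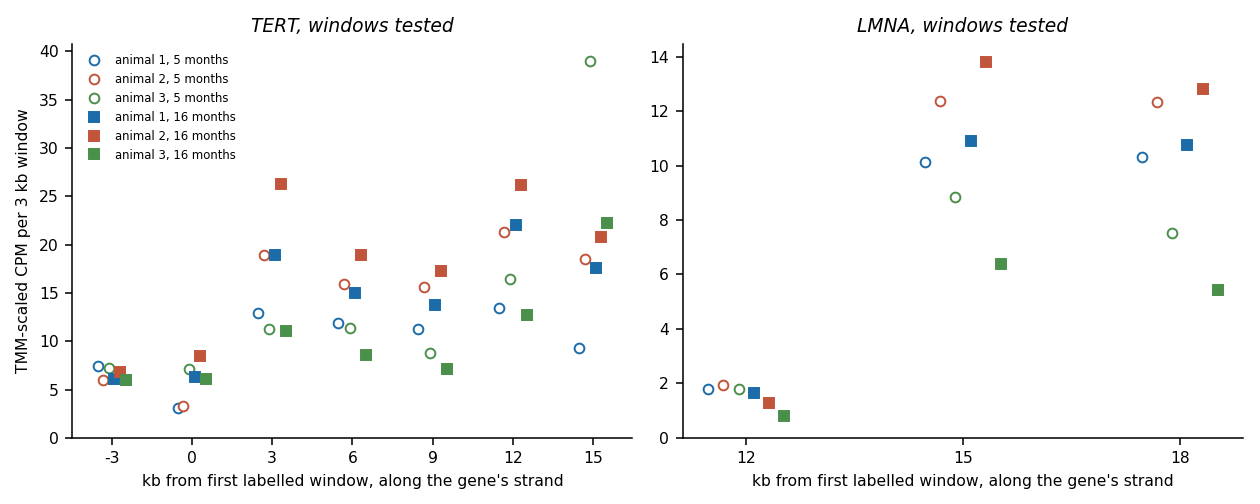
TMM-scaled CPM per 3 kb window in the windows of TERT (left) and LMNA (right) that were tested, by distance from the first labelled window in kb. Open circles are 5 months and filled squares 16 months, coloured by animal. Animal 3 (green) is lowest at both ages in the last 2 windows of LMNA, and in the last window of TERT it is highest at both.

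The wider pathway was read from a list of 46 related genes, of which 44 were labelled. By edgeR, 0 of 32 starts and 0 of 38 bodies tested were called in either direction, 1 start and 0 bodies had an unadjusted p below 0.05, and the median log2 fold change was 0.08 for starts and 0.09 for bodies. The median start held 0.0473 RPKM and 3 of 44 passed 0.5 RPKM. These were ACD, a telomere-capping protein (0.725 ± 0.246 RPKM), CDKN1C, the third inhibitor of the CDKN1 family (0.593 ± 0.280 RPKM), and E2F4, a factor that pairs with the retinoblastoma family (0.559 ± 0.225 RPKM; SD, n = 6). The start of TERT was above all 44. The median body held 0.112 RPKM, and 8 of 41 bodies passed 0.5 RPKM. The highest were LMNB2, encoding lamin B2 (1.31 ± 0.407 RPKM), and KDM6B, a demethylase that lifts Polycomb silencing (1.24 ± 0.360 RPKM), both below the body of TERT. LMNB2 and LMNB1, which both encode B-type lamins, stood far apart in their bodies, at 1.31 and 0.0560 RPKM.

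Across the 6 libraries, the starts most like that of TERT in log2 CPM were PCDHGB4 (Pearson r = 0.996), LOC520181 (r = 0.994) and LOC100848197 (r = 0.991), out of 18564 starts compared. These libraries share depth and scaling, and the values are given as a description.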

How the data were processed

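The authors aligned quality-filtered MIRA-Seq reads to UMD v3.1 with NextGENe v2.3.4 and deposited raw read counts per sequential 3 kb window, with the mean and highest depth of coverage as an unscaled signal. Labels, strands and coding marks are those of the deposited tables. Their coding mark is described as a number of coding sequences but increases along the strand, so only its presence was used. The handling of PCR copies and multiply matching reads is not stated in the sources used, so errors cover counting and the spread between libraries alone.

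RPKM was taken over matched reads. Counts were tested in R 4.3.3 with edgeR 4.0.16 (quasi-likelihood, TMM factors, animal block, Benjamini-Hochberg over all features), after filters of 1 CPM (windows) or 10 reads (starts and bodies) in at least 3 of 6 libraries. The code was run on data simulated from the model's own fit, with the same age change in all animals. Such data do not cover animals that change in opposite directions. DESeq2 1.42.0 was an alternative. SEs are the log2 fold change over the root of F. Libraries were paired by animal, and deviations from the age means correlated at 0.290, 0.544 and 0.710 within animals 1, 2 and 3. The genes and lists were chosen with earlier results of these data known. Named windows were the first, upstream and highest of each gene and those at an unadjusted p below 0.05. Other windows were chosen after their values were seen, among them those called between animals, the coding windows beside a peak and the window whose ages did not overlap. Related genes were named by level, and likeness was taken for the highest start. No sequences were used. Python 3.11.15, pandas 2.3.3, numpy 2.4.6 and matplotlib 3.10.9 served for the rest. Alternatives were other tests, scalings and filters, no block, other definitions of the start and body, and leaving out each animal.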

Additional observations from a re-analysis of the deposited data

How the results depend on the processing

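The number of windows of the 8 genes called by age stayed at 0 under every alternative but one. It ranged from 0 to 2 when an animal was left out, with 2 without animal 3, and starts and bodies stayed at 0. Without the replicate block 0 windows, 0 starts and 0 bodies of these genes were called by edgeR, with 0 of each at an unadjusted p below 0.05. That fit called 0 windows, 1 start and 0 bodies over the whole genome, so it cannot show whether the pairing matters for these calls. The log2 fold change of the CDKN1A start became 0.0076. Over the whole genome the count of called windows was 194, and ranged from 0 without the block to 1267 without animal 3. Starts ranged from 0 to 31 against 6, and bodies from 0 to 215 against 3. With library size alone 8 windows were called between animals in place of 3, and with DESeq2's size factors 4.

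The fold change by age of the LMNB1 body, 0.01, became -0.036 with DESeq2, -0.033 with its size factors, -0.049 with library size only, -0.016 with a filter of 1 CPM and -0.068 with the TMM factors of windows. Leaving out an animal gave -0.55 to 0.021 for the CDKN1A start, -0.45 to 0.062 for the LMNA start, -0.66 to 0.25 for the LMNB1 start, -0.57 to 0.21 for the TERT start, -0.34 to 0.044 for the CDKN1A body, -0.46 to 0.27 for the TERT body, -0.26 to 0.32 for the LMNB1 body and -0.12 to 0.51 for the LMNA body. Of the recomputed fold changes 156 kept direction and call, 15 changed sign and 2 became calls.

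For start minus body, the first window alone gave -0.34 for CDKN2A, -0.23 for CDKN1B and -1.09 for RB1 (exact permutation p = 0.0312). The median window of the body gave 0.27 for LMNB1, -1.71 for LMNA, 1.99 for CDKN2A and 0.80 for RB1, leaving out windows with stacked reads gave -0.77 for RB1, and leaving out an animal gave -0.038 to 0.29 for RB1. The causes were not tested. The number of genes with a lower start in every library ranged from 3 to 5. With 4 libraries the exact test cannot go below 0.125. Levels over the reads counted in windows were higher, and 3 bodies then passed 0.5 RPKM in place of 2. Depth limits the low genes, whose starts held 0 to 56 reads outside TERT.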
